A study of Homo sapiens with 18 samples.

Results

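The U3 small nucleolar RNA (snoRNA) genes at 17p11.2 were examined in QKI eCLIP peak lists from human embryonic stem cells differentiating into cardiomyocytes. The 4 genes SNORD3A, SNORD3B-1, SNORD3B-2 and SNORD3C were selected on measured values of these lists, so their fold enrichments are given as a description. Their windows on hg19 chromosome 17 were 18965100 to 18965600 on the plus strand for SNORD3B-1, 18967100 to 18967600 on the minus strand for SNORD3B-2, 19091200 to 19092200 on the plus strand for SNORD3A and 19093000 to 19093500 on the minus strand for SNORD3C. Same-strand entries overlapping a window by at least 1 nt numbered 63 of the 889743 entries in all 12 lists, 57 of them in the lists of single libraries and 6 in the merged lists. No list held an entry on the opposite strand of any window.

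The cells were HUES6, an established human embryonic stem cell line, at day 0 (pluripotent), day 4 (cardiac progenitors) and day 8 (cardiomyocytes, collected once beating was seen). Day 4 and day 8 cells had received 1.5 uM CHIR and 1.5 ng/mL BMP4, then 100 nM C59, with a second C59 addition on the way to day 8 whose unit in the labels differs. Day 0 cells had none of these. Each day had 3 immunoprecipitated (IP) libraries made with 1 anti-QKI antibody, and 3 inputs that were not analysed here beyond the authors' scores. The labels name no genetic change in any group. They also leave unsaid whether the replicates were independent cultures, and the variation among them may be technical. The lists hold peaks and no expression levels, so the labelled cell types could not be set against their markers here.

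U3 belongs to the box C/D snoRNAs, most of which guide methylation. U3 instead base-pairs with the ribosomal RNA precursor in the small subunit processome and is needed for the early cleavages on the way to small-subunit ribosomal RNA. It is among the most abundant snoRNAs and is transcribed from its own promoters, in several near-identical copies. QKI, a STAR-family protein that binds RNA, is known chiefly for regulating splicing and RNA stability. In eCLIP, proteins are fixed to the RNA they touch by ultraviolet light, QKI is pulled down with its RNA fragments, and peaks of these are scored against a size-matched input.

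RefSeq lists all 4 genes as snoRNA genes of 217 nt, with a further copy, SNORD3D, between SNORD3B-2 and SNORD3A in gene order. These lengths and this order come from GRCh38.p14, and no annotation of hg19 was used, so peaks are placed by their distance from the window edge and not by their place inside the snoRNA. Because the copies are nearly identical, a read can match several of them, and how such reads were assigned was not given in the sources used here. The division of signal among the 4 genes is uncertain for that reason.

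Library lists held 52462 to 187962 clusters each, and read depth is unknown. A passing peak had an authors' fold of at least 4 over input and p at or below 0.001. Over the 9 libraries 8.77% of all clusters passed (4.02% to 17.4% by library), against 25 of the 57 in the U3 windows (43.9%), a share that the selection on enrichment fixes in part. The 25 were divided unequally. SNORD3B-1 had 14 passing peaks among 21 clusters and SNORD3C 11 among 17, while none of the 15 clusters at SNORD3A and none of the 4 at SNORD3B-2 passed. A passing peak was present in 9 of 9 libraries at SNORD3B-1 and in 8 of 9 at SNORD3C. The only one at SNORD3C was 17 nt wide in day 0 replicate 2 and 4 nt wide in day 8 replicate 2. Of 4909 loci, made by joining reproducible peaks within 1000 nt on a strand and counting the 4 windows as loci, 9.94% had a passing peak in 9 of 9 libraries. The share with a passing peak in fewer libraries, such as the 8 of SNORD3C, was not counted.

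**Figure D1:**
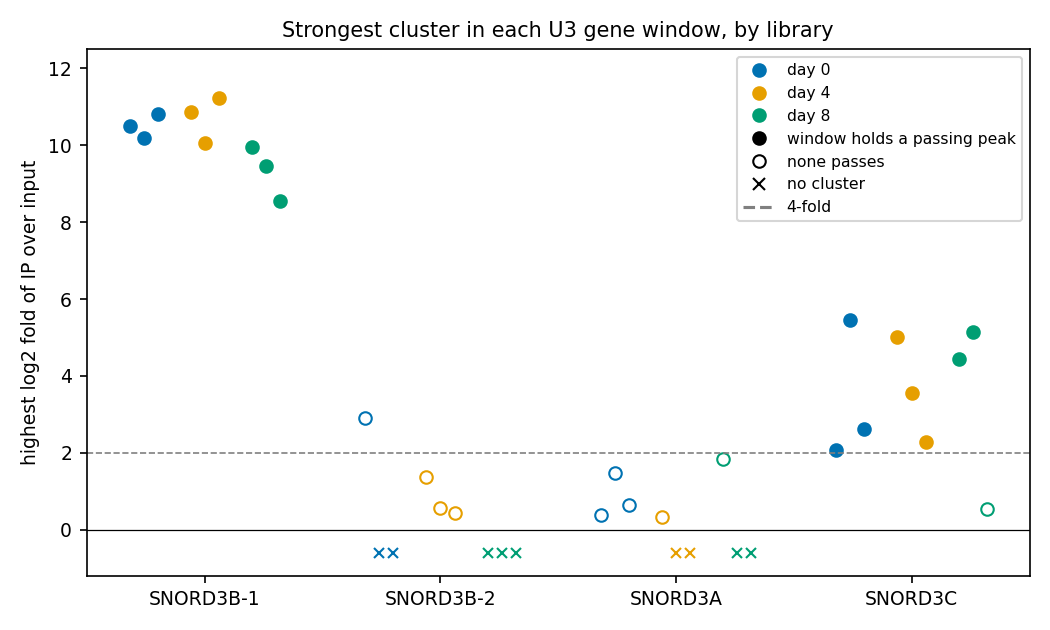
The highest log2 fold of IP over input among the clusters of each window (vertical axis) is plotted for each of 9 libraries, grouped by gene and coloured by day. Filled circles are libraries with a passing peak in the window, open circles those with none, and crosses (drawn below 0 for display) those without a cluster. SNORD3B-1 lies between 8.56 and 11.23 in every library, SNORD3C spreads from 0.55 to 5.46, and SNORD3A and SNORD3B-2 hold open circles and crosses only.

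SNORD3B-1 carried the strong signal. Its highest log2 fold was 10.49, 10.20 and 10.82 in day 0 replicates 1 to 3, 10.88, 10.07 and 11.23 at day 4, and 9.97, 9.47 and 8.56 at day 8, which on the linear scale spans 376-fold to 2398-fold over input. The −log10 p of the same clusters was 310, 300 and 400 at day 0, 400, 204 and 400 at day 4 and 178, 141 and 71.2 at day 8, where 400 is the cap of the lists.

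Within each library's own list the SNORD3B-1 cluster stood near the top. By fold it ranked 49th of 102085, 26th of 179932 and 15th of 187962 clusters at day 0, 1st of 63319, 12th of 70003 and 1st of 99552 at day 4, and 3rd of 52462, 2nd of 61230 and 30th of 62897 at day 8. Among the 488 loci with a passing peak in 9 of 9 libraries its rank by highest fold was between 1 and 14, and the median locus of that set had a highest log2 fold of 4.51 to 6.28. Day 8 replicate 3 gave the lowest fold, the lowest −log10 p and the rank of 14.

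SNORD3B-1 was above SNORD3C in 9 of 9 libraries. The other genes kept no fixed order, since SNORD3B-2 exceeded SNORD3C in day 0 replicate 1 and was without a cluster in 5 libraries.

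All 3 day 8 folds lay below all 3 day 0 folds and all 3 day 4 folds, and day 4 overlapped day 0. These folds are not of like stretches. Those of day 0 and of day 4 replicate 3 belong to the stronger of 2 abutting peaks, 26 to 49 nt wide. Those of day 4 replicates 1 and 2 (85 and 83 nt) and of day 8 (74 to 76 nt) belong to 1 undivided peak. The mean highest log2 fold was 10.50 ± 0.31 at day 0, 10.73 ± 0.59 at day 4 and 9.33 ± 0.71 at day 8 (SD, n = 3 each). Of the 488 loci, 22.7% were lower at day 8 than at day 0 without overlap and 2.66% lower at day 8 than at day 4. Each fold is a peak's own value against that library's input, so this order was not tested. The fold is a ratio of IP to size-matched input and is not a level of the RNA, which the lists do not hold. In these bulk lysates a change in some cells and a change in every cell cannot be told apart, and neither was measured.

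The strong signal sat at a single position. Passing peaks of all 9 libraries covered nucleotides 18965368 to 18965439 on the plus strand, 72 nt in common, inside an 86-nt site from 18965358 to 18965443. The site lies 258 to 343 nt from the 5′ edge of the window. No library had a gap within it, and its last nucleotide varied from 18965439 to 18965443.

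**Figure D2:**
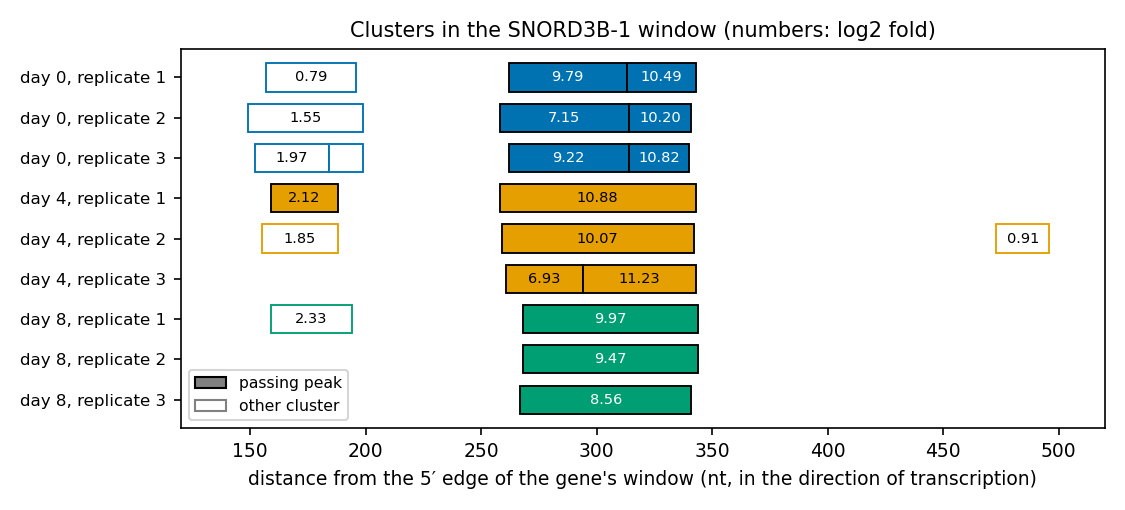
Clusters in the SNORD3B-1 window are drawn to scale for each library (rows), with distance from the 5′ edge of the window in nt on the horizontal axis, filled where they passed and open otherwise, and labelled with their log2 fold. The strong site at 258 to 343 nt is filled in 9 of 9 rows, divided in the 3 day 0 rows and in day 4 replicate 3, and begins further right in the 3 day 8 rows.

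The site was called as 2 abutting peaks in all 3 day 0 libraries and in day 4 replicate 3, and as 1 peak in the other 5 libraries. At day 0 the division fell after nucleotide 18965412 in replicate 1 and after 18965413 in replicates 2 and 3. At day 4 replicate 3 it fell after 18965393. In each of these 4 libraries the downstream piece had the higher log2 fold. The pieces had 10.49 downstream and 9.79 upstream in day 0 replicate 1, 10.20 and 7.15 in replicate 2, 10.82 and 9.22 in replicate 3, and 11.23 and 6.93 in day 4 replicate 3. The authors' p did not always follow the fold. In day 0 replicate 2 the upstream piece reached the cap of 400 in −log10 p with the lower fold, and the downstream piece had 300.

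The upstream edge of the site differed by day. The first covered nucleotide was 18965362, 18965358 and 18965362 in day 0 replicates 1 to 3, 18965358, 18965359 and 18965361 at day 4, and 18965368, 18965368 and 18965367 at day 8. The day 8 edge was thus 5 to 10 nt further downstream than in any library of day 0 or day 4, while the downstream edges overlapped. The span of the site was 80.7 ± 2.52 nt at day 0, 83.3 ± 1.53 nt at day 4 and 75.3 ± 1.15 nt at day 8 (SD, n = 3 each). Cluster edges can move with read depth, which is unknown here, and its part in this difference was not tested. The edge was singled out after its values were seen. How many other loci differ by day in edge or span without overlap was not counted, so the shift cannot be called particular to this site.

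A weaker site lay upstream in the same window, from 18965249 to 18965298. It held 7 clusters in 6 of 9 libraries, in all 3 of day 0, in replicates 1 and 2 of day 4 and in replicate 1 of day 8. Its highest log2 fold per library was 0.79, 1.55 and 1.97 at day 0, 2.12 and 1.85 at day 4 and 2.33 at day 8. It passed in day 4 replicate 1 alone (−log10 p of 4.15). In day 8 replicate 1 the fold was higher and the −log10 p of 2.48 was below the limit of 3. A single further cluster, from 18965573 to 18965595 in day 4 replicate 2, had a log2 fold of 0.91.

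The merged lists of peaks reproducible across a day's 3 libraries, 7778, 947 and 1576 peaks long at days 0, 4 and 8, held 2, 3 and 1 peaks in the windows. In the authors' deposited table for day 0 the SNORD3B-1 site was 2 peaks, 18965362 to 18965413 and 18965414 to 18965440, with log2 folds of 8.75 and 10.50. In the authors' deposited table for day 4 it was 18965361 to 18965393 and 18965394 to 18965442, with 7.16 and 10.72, the second ranking 1st by fold of the 947. In the authors' deposited table for day 8 it was 1 peak, 18965368 to 18965443, with 9.33, ranking 3rd of 1576. The only other entry was a day 4 peak at SNORD3C, 19093449 to 19093556 on the minus strand, with a log2 fold of 3.28 and rank 833 of 947.

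SNORD3C was enriched more weakly and less evenly. Its highest log2 fold was 2.07, 5.46 and 2.61 in day 0 replicates 1 to 3, 5.02, 3.56 and 2.28 at day 4, and 4.43, 5.14 and 0.55 at day 8. The 3 days overlapped. Day 8 replicate 3 was the single library in which no SNORD3C cluster passed, with −log10 p of 0.256 for its strongest cluster.

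These values came from a pair of sites. A broad site from 19093433 to 19093558 on the minus strand ran past the upstream edge of the window and had a cluster in 9 of 9 libraries, with nucleotides 19093453 to 19093468 covered in every one. It passed in 6 of 9 libraries, in day 0 replicates 1 and 3, in all 3 of day 4 and in day 8 replicate 1. Its highest log2 fold per library averaged 1.80 ± 0.98 at day 0, 3.02 ± 0.67 at day 4 and 1.92 ± 2.18 at day 8 (SD, n = 3 each). The 3 day 8 libraries were 4.43, 0.78 and 0.55, so replicate 1 stood apart from the other two. In day 0 replicate 1 and day 8 replicate 2 a further cluster lay 4 and 6 nt past the window edge and was not counted.

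The other SNORD3C site was short and lay further downstream, from 19093346 to 19093363. It held 1 cluster each in day 0 replicate 2, day 4 replicate 1 and day 8 replicate 2, of 17, 7 and 4 nt, with log2 folds of 5.46, 5.02 and 5.14. Their −log10 p was 10.1, 5.35 and 6.14, and all 3 passed. These short clusters supplied the highest SNORD3C fold in each of those libraries. At day 8 replicate 2 the 4-nt cluster was the only passing peak of the gene.

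**Figure D3:**
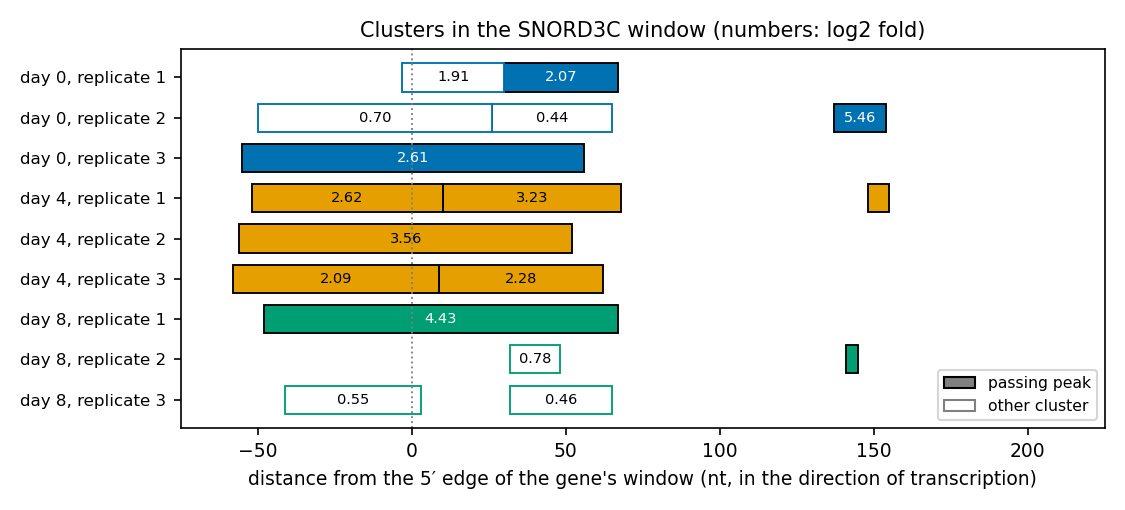
Clusters in the SNORD3C window are drawn to scale for each library (rows), with distance from the 5′ edge of the window in nt on the horizontal axis (dotted line at 0), filled where they passed and open otherwise, and labelled with their log2 fold where wide enough. The broad site crosses the window edge and is filled in all 3 day 4 rows, and the short downstream site appears in 1 row of each day.

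SNORD3A showed clusters of little enrichment, most of them with very small p. It held 15 clusters in 5 libraries, with 1, 2 and 2 in day 0 replicates 1 to 3, 3 in day 4 replicate 1 and 7 in day 8 replicate 1. The other 4 libraries had none. The highest log2 fold was 0.38, 1.46 and 0.63 at day 0, 0.32 in day 4 replicate 1 and 1.85 in day 8 replicate 1, all below the 4-fold limit of 2. For 10 of the 15 clusters the −log10 p was nevertheless at the cap of 400, a combination found for 20 to 90 clusters below 4-fold in each library's whole list. The clusters of day 4 replicate 1 were below the cap, with −log10 p of 14.5, 7.30 and 0.956.

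In all 5 libraries the first covered nucleotide at SNORD3A was 19091335. The clusters reached 19091343, 19091345 and 19091346 at day 0 and 19091344 in day 4 replicate 1, so that 9 to 12 nt were covered. In day 8 replicate 1 they formed an unbroken run of 112 nt to 19091446. Day 8 replicate 1 also held 5 of the 10 clusters at the cap, and its list held the most clusters at the cap below 4-fold, 90.

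SNORD3B-2 had clusters in the fewest libraries, 4 of 9, against 5 of 9 for SNORD3A. It held 1 cluster each in day 0 replicate 1 and in day 4 replicates 1 to 3, and none at day 8. The log2 folds were 2.91 in the day 0 library and 1.38, 0.55 and 0.44 in the day 4 libraries, with −log10 p of 1.14 and of 1.31, 0.288 and 0.169. Its day 0 fold was above the 4-fold limit and its p was not below 0.001. The 4 clusters shared nucleotides 18967152 to 18967179 on the minus strand.

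**Figure D4:**
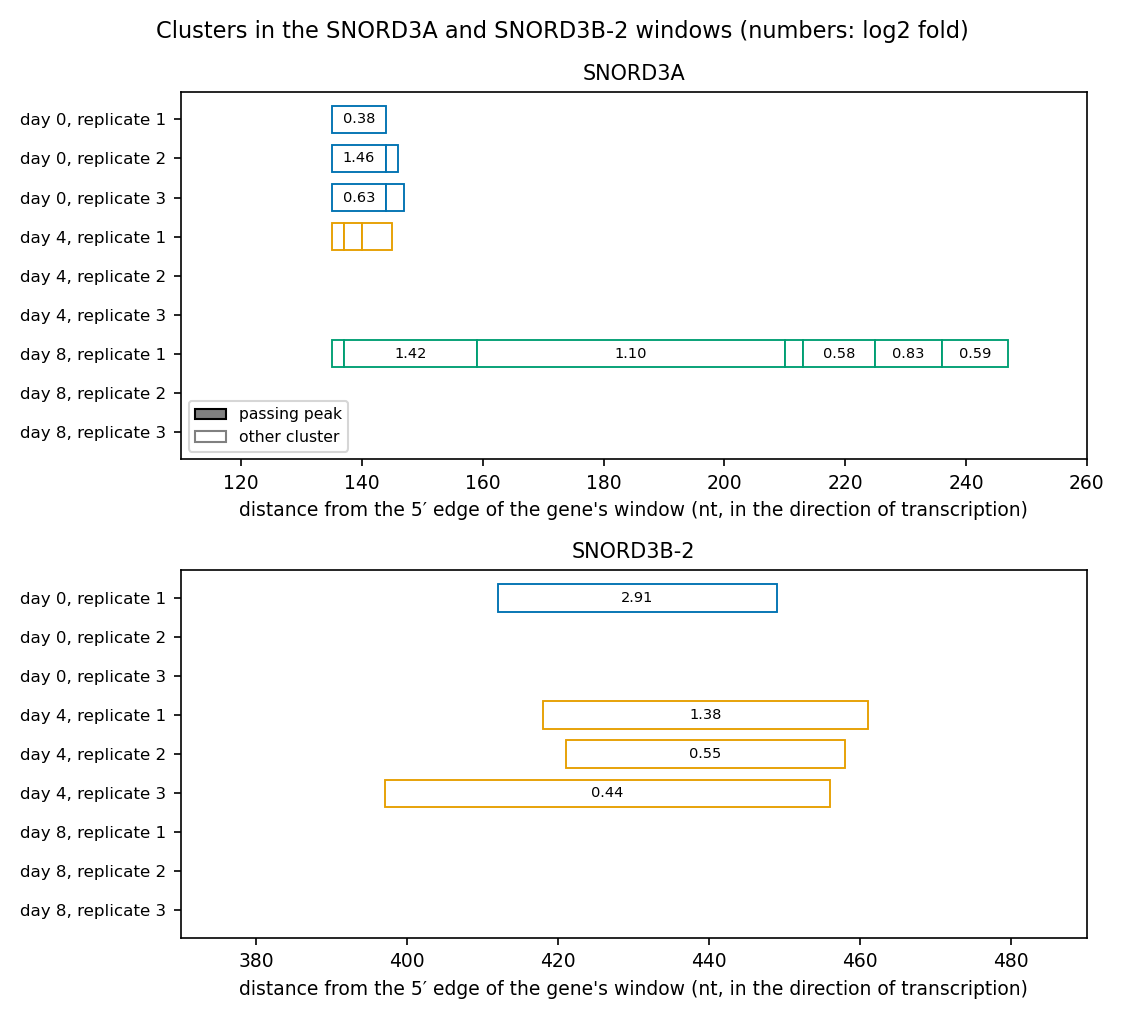
Clusters in the SNORD3A (top) and SNORD3B-2 (bottom) windows are drawn to scale for each library (rows), with distance from the 5′ edge of the window in nt on the horizontal axis and log2 folds where wide enough. All bars are open because none passed. SNORD3A bars begin at the same nucleotide in 5 rows, and SNORD3B-2 bars appear in 1 day 0 row and 3 day 4 rows.

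The number of nucleotides in passing peaks was then compared over the days, for each window and for every other locus, by an exact permutation test of the F statistic over the 280 partitions of the 9 libraries into 3 days. At SNORD3B-1 the values were 81, 83 and 78 nt at day 0, 114, 83 and 82 nt at day 4 and 76, 76 and 74 nt at day 8. The exact permutation p was 0.0179 unadjusted and 0.0707 after Benjamini-Hochberg adjustment over the 4909 loci, so the difference did not pass 0.05. The adjusted p of 0.0707 was also the smallest over all loci, a value that 2480 of the 4909 shared, and 0 passed. Over all loci the unadjusted exact permutation p went down to 0.00357, and 52.9% of loci had one at or below 0.05. The loci were joined from the merged lists, where day 0 had the most peaks (7778, against 947 at day 4 and 1576 at day 8). Shares of loci that differ by day, here and in the comparisons below, are set in part by that choice. Day 8 was below day 0 without overlap, as in 60.2% of loci, and below day 4 without overlap, as in 1.94% of loci. The separation from day 4 held at the 8-fold limit (85, 83 and 82 nt at day 4, 76, 76 and 74 nt at day 8). It was lost with any listed cluster (114, 139 and 82 nt at day 4, 111, 76 and 74 nt at day 8). The second count, 95 loci, was 479 without day 4 replicate 1, 146 without day 4 replicate 3 and 217 without day 8 replicate 3. The 114 nt of day 4 replicate 1 include the 29 nt of the weaker upstream site, and 85 nt remain for the strong site.

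As a share of all passing-peak nucleotides in the library, the order of the days was different. SNORD3B-1 took 0.00732%, 0.00929% and 0.00847% at day 0, 0.0607%, 0.0152% and 0.0284% at day 4 and 0.0176%, 0.0293% and 0.0101% at day 8. Day 4 and day 8 both lay above day 0 without overlap, as did 12.4% of loci at day 4 and 14.5% at day 8. The exact permutation p over the 3 days was 0.0893 (adjusted 0.193), and 39.2% of loci had an unadjusted exact p at or below 0.05. The denominators ran from 187867 nt in day 4 replicate 1 to 1105862 nt in day 0 replicate 1, a wider range than that of the SNORD3B-1 nucleotides (74 to 114).

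At SNORD3C passing peaks covered 37, 17 and 111 nt at day 0, 127, 108 and 120 nt at day 4 and 115, 4 and 0 nt at day 8. These values take both SNORD3C sites together. The 17 nt of day 0 replicate 2 and the 4 nt of day 8 replicate 2 came wholly from the short downstream site. So did 7 of the 127 nt of day 4 replicate 1. At this 4-fold limit day 4 was even across libraries and overlapped both other days, because of day 0 replicate 3 and day 8 replicate 1. The evenness was lost at an 8-fold limit (65, 108 and 0 nt in day 4 replicates 1 to 3). It was also lost with only peaks wholly inside the window (65, 0 and 53 nt). The exact permutation p over the 3 days was 0.196 (adjusted 0.265). As a share of passing-peak nucleotides day 4 (0.0676%, 0.0197% and 0.0416%) lay above day 0 (0.00335%, 0.0019% and 0.0121%) without overlap, as in 12.4% of loci. The 3-day exact permutation p of this share was 0.0714 (adjusted 0.161), beside the 39.2% of loci with an unadjusted exact p at or below 0.05. SNORD3A and SNORD3B-2 had 0 nt in every library, so their p was 1 by construction. For a single pair of days, 3 against 3 libraries cannot give an exact two-sided p below 0.1, and no pair was tested.

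**Figure D5:**
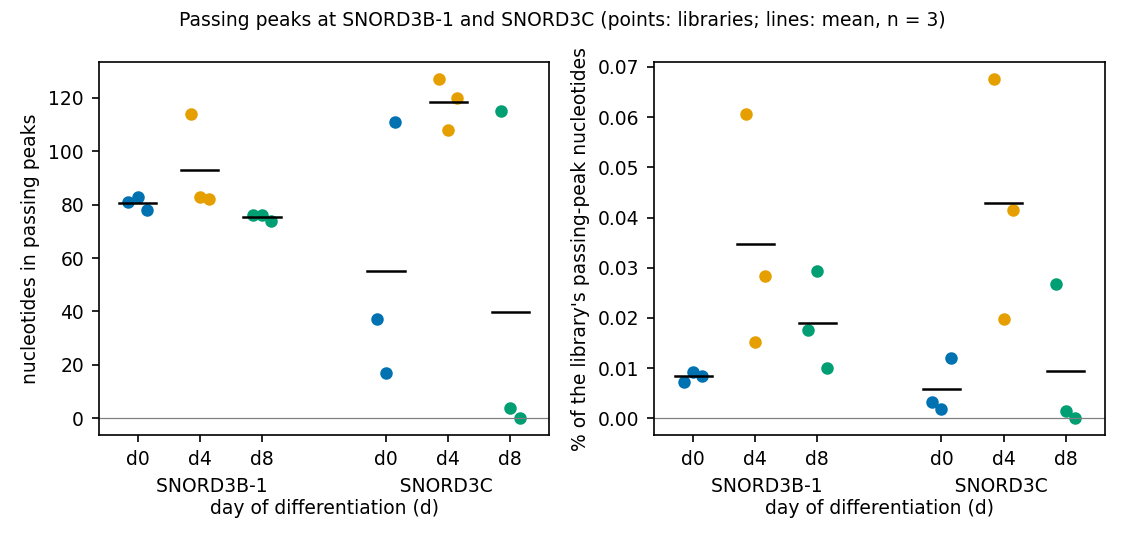
Nucleotides in passing peaks (left) and their percentage of all passing-peak nucleotides of the library (right) are plotted for SNORD3B-1 and SNORD3C at days 0, 4 and 8, with 1 point per library and a line at the mean of 3. The SNORD3B-1 points stay between 74 and 83 nt in 8 of 9 libraries with 114 nt in the other. In nucleotides at the 4-fold limit, SNORD3C is even at day 4 alone.

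The loci whose covered nucleotides followed SNORD3B-1 most closely over the 9 libraries were sought among the 485 other loci that passed in all 9 and varied. Pearson's r was 0.78 for chromosome 12 (110382782 to 110383013, minus strand), 0.72 for chromosome 5 (138640715 to 138640788, plus strand), 0.52 for chromosome 6 (80992921 to 80993003, plus strand), 0.51 for chromosome 5 (79946596 to 79948107, minus strand) and 0.50 for chromosome 7 (94170298 to 94170484, plus strand). The corresponding Spearman's rho was 0.38, -0.13, 0.30, 0.34 and 0.43. Without day 4 replicate 1 and day 8 replicate 3, the libraries farthest from the median, r became 0.32, -0.35, 0.71, 0.40 and 0.40. The first pair of values thus rested on those libraries. All points share their libraries and list lengths, and r is given as a description.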

How the data were processed

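QKI eCLIP was profiled at days 0, 4 and 8, with 3 IP libraries and 3 inputs per day (18 samples). Sample titles gave the day and replicate number. Cells were crosslinked at 400 mJ/cm2, RNA was taken from a 40 to 115 kDa membrane region, and an adapter with 10 random bases was ligated, per the labels' protocols. Tools named, with no version, per the submitters' processing notes, are cutadapt, STAR and SAMtools. How peaks were called, and duplicate or multiply mapping reads handled, is not stated there. Peaks are input-normalized on hg19, per the file headers, with 1 list per IP library and 1 merged list per day (4-fold, 3-way IDR). The authors deposited a log2 fold of IP over input and a −log10 p-value, capped at 400, for each peak. A further deposited score per peak was not used.

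Entries were taken by window and strand with Python 3.11.15, numpy 2.4.6 and pandas 2.3.3, and figures were drawn with matplotlib 3.10.9. Passing peaks, loci and the exact permutation test are described where first used, and the test was checked on simulated data. The simulated libraries did not differ in list length as the real ones do, so the check does not cover that difference. P-values set differences between days against the spread between these libraries only. They may not extend to independent cultures, since the labels leave the origin of the replicates unsaid. The genes and their windows were chosen with earlier results of these data known. By rule, the 4 genes, the strongest cluster per gene and library, every merged peak in a window and the 5 loci most like SNORD3B-1 were named. Lists of U3 protein, processome and other small RNA genes, and of marker genes, could not be counted without an hg19 annotation. Alternatives were an 8-fold limit, any cluster, peaks wholly inside, either strand, clusters of at least 10 nt, ranking by −log10 p, loci joined within 20 kb, each library left out and a replicate block.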

Additional observations from a re-analysis of the deposited data

How the results depend on the processing

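No 3-day difference at a U3 window passed 0.05 after adjustment under any setting run. Without each library in turn the adjusted exact permutation p of covered nucleotides ran from 0.0675 to 0.258 for SNORD3B-1 and from 0.0937 to 0.407 for SNORD3C, and that of the share from 0.0823 to 0.37 and from 0.0823 to 0.271. With the replicate block (days permuted within replicate numbers) the adjusted exact p was 0.186 and 0.341 for covered nucleotides of SNORD3B-1 and SNORD3C, and 0.297 and 0.258 for their shares. The block allows fewer arrangements than the 280 partitions, so its smallest possible p is larger and passing 0.05 after adjustment was harder. Correlations of deviations between same-numbered libraries were -0.13 to 0.10, so the numbers were not taken to pair them. SNORD3C passing peaks numbered 6 at 8-fold, 6 wholly inside the window and 17 as any cluster, against 11. As any cluster SNORD3A had 15 and SNORD3B-2 had 4, against 0. With clusters of at least 10 nt SNORD3A kept 1 library, at a log2 fold of 1.42 and 147.5 nt from the window edge, against medians of 0.63 and 139 nt. Loci lower at day 8 than at day 4 without overlap numbered 231 as any cluster and 95 to 479 without each library, against 95 (479 without day 4 replicate 1, 146 without day 4 replicate 3, 217 without day 8 replicate 3). Those higher at day 8 than at day 4 ran from 382 to 605 (605 without day 8 replicate 2), and those higher at day 4 than at day 0 from 70 to 163 (163 without day 4 replicate 1). The cause of these shifts was not tested. The other adjusted p kept their side of 0.05, the other folds and positions moved by less than the spread between replicates, and the other counts stayed within 1.5 times, among them SNORD3B-1 passing peaks (21 as any cluster, against 14).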

Other observations

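Between the 4 windows, from 18965100 to 19093500, other clusters were few. A minus-strand position within 19015780 to 19015865 had a passing peak in day 0 replicate 3 (log2 fold 2.98) and in day 4 replicates 1 and 3 (6.35 and 5.02), and a cluster that did not pass in day 8 replicate 3 (3.69, −log10 p of 1.89). It was not assigned to a gene, since no hg19 annotation was used. Downstream of the SNORD3B-2 window, a minus-strand cluster within 18966873 to 18966956 appeared in all 3 day 4 libraries and in day 8 replicates 1 and 2, and passed in none. These positions were chosen after their values were seen.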
